A study of Mus musculus with 16 samples.

Results

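Laminins, type IV collagen and nidogen form the basement membrane, the sheet of matrix on which the mammary epithelium rests. A laminin is a trimer of an alpha, a beta and a gamma chain, and its alpha chain carries the main binding sites for integrins and dystroglycan. Laminin with the *Lama3* and *Lamb3* chains anchors basal cells through hemidesmosomes, whereas trimers with the *Lama5* chain lie along the epithelium and pair with the *Lamb1* or *Lamb2* and the *Lamc1* chains. *Col4a1* and *Col4a2* encode the chains of the widespread collagen IV network, and *Nid1* encodes a linker between the laminin and collagen networks. In the mammary gland the basal (myoepithelial) cells touch this sheet directly, and stromal fibroblasts lie on its other side.

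The 9 genes described here (*Lama3*, *Lama5*, *Lamb1*, *Lamb2*, *Lamb3*, *Lamc1*, *Col4a1*, *Col4a2* and *Nid1*) were chosen as named components of the basement membrane, and all 9 are among the 17721 genes counted in these libraries. The study dissected 4 nipple, 6 duct and 6 terminal end bud (TEB) fragments from mammary glands of K14-Cre/R26-mTmG mice (C57BL/6) 5 weeks old, in which Cre driven by a keratin promoter switches a membrane reporter in the *Krt14* lineage. The labels name no treatment and do not say which fragments came from the same mouse, so that p-values measure the spread between fragments. The 3' end of each transcript was counted with unique molecular identifiers (UMIs) in single cells sorted into wells. Fragments are named by location and label number. The question put to each gene was which cells contain its transcript and whether its level differs between nipple, duct and TEB.

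Fragments held 1856141 to 5233122 UMIs, and 1317 of 1419 cells passed the filters. Clusters were named from marker genes as basal-like (294 cells), ER+ luminal-like (428), ER- luminal-like (178) and fibroblast-like (252), with 78 myeloid-like, 19 pericyte-like and 68 unnamed cells. UMIs were summed per fragment and class where at least 5 cells were present, which gave 16 basal-like, 16 ER+, 14 ER- and 13 fibroblast-like sums, and levels are given as UMIs scaled to a sum of 1000000 (CPM). Because only the 3' end is counted, CPM were not scaled to transcript length. All 10 basal markers had UMIs in the basal-like sums of every location, but their summed level was 18000 to 20400 CPM in nipple, 22100 to 28000 in duct and 4540 to 8670 in TEB, and the basal-like cells of nipple and duct (cluster 2) and of TEB (cluster 6) formed different clusters with 1 nipple cell shared. All 7 fibroblast markers were detected in the fibroblast-like sums. The well barcodes recur, 95 in all and each used by at least 2 fragments, and RNA from other wells of a fragment was estimated from fibroblast and myeloid transcripts (keratin and myeloid transcripts for fibroblast-like cells) at a mean of 3.63% to 13% of the UMIs across classes and locations. For each gene the UMIs expected from this source are given beside the observed ones.

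In the GENCODE annotation of GRCm38 *Lama5* spans 180176373 to 180225859 of chromosome 2 on the minus strand, *Lamb1* 31265234 to 31329644 of chromosome 12 and *Lamb2* 108479736 to 108490530 of chromosome 9. *Lamb3* (193207699 to 193343878) and *Lamc1* (153218922 to 153332786) are on chromosome 1 and *Nid1* is at 13437551 to 13512269 of chromosome 13. The annotated *Lamb3* gene overlaps *Hsd11b1* and *G0s2* on the other strand, and whether counting used strand is not given in the sources used here, so that reads in the shared stretch cannot be told apart. *Col4a1* (11198423 to 11312826, minus strand) and *Col4a2* (11312805 to 11449287, plus strand) stand head to head on chromosome 8, and their annotated starts are 21 bases apart. Since these genes had similar patterns below, the CCAAT match of each gene is printed from the RefSeq promoter windows (GRCm38.p6, 250 bases before to 50 after a start) in the direction of each gene, with the matched letters in capitals (ATTGG is CCAAT read on the other strand). The *Col4a2* stretch is at chr8:11312762-11312789 (plus strand) and the *Col4a1* stretch at chr8:11312955-11312982 (minus strand).
Col4a2: cgaggagctccCCAATttgttggcgctg
Col4a1: gcttgcccgggATTGGcgagccaagggg

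Windows were read for 7 of the 9 members, all but *Lama3* and *Lamc1*, and those of *Col4a1* and *Col4a2* overlap. CCAAT, searched on both strands, was found in 4 of the 7 (*Lamb1*, *Col4a1*, *Col4a2* and *Nid1*) against 37.4% of all 32851 windows, and GGGCGG in 5 of the 7 against 35.7%. TATAAA and TGANTCA were found in 0 of the 7, against 13.6% and 7.81% of all windows.

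The alpha chains were highest in epithelial classes among the 4 classes summed by fragment. *Lama3* (chromosome 18, 12333819 to 12583013, plus strand), the alpha chain of the hemidesmosome laminin, was at 77.9 to 282 CPM in the 16 basal-like sums (median 129) and at 0 to 8.17 CPM in ER+ luminal-like and 0 to 7.81 CPM in fibroblast-like sums, where 102% and 95.7% of its UMIs were expected from other wells. *Lama3* was at 0 to 71.7 CPM (median 6.14) in ER- luminal-like sums, with 14.9% of the UMIs expected from other wells and more than expected in 10 of 14 fragments. These UMIs were 44 in nipple, where 2 of 4 sums were at 0, 33 in duct and 3 in TEB. The summed basal markers of the ER- sums were 1740 to 3330 CPM in nipple, 310 to 784 in duct and 57.8 to 190 in TEB. Their part in this level was not tested. *Lama3* was higher in basal-like than in ER+ luminal-like cells in 16 of 16 fragments. *Lama5* was found in all 3 epithelial classes. Its level was 9.91 to 245 CPM in basal-like, 22.2 to 128 CPM in ER+ luminal-like and 20.1 to 112 CPM in ER- luminal-like sums, so that the ranges overlapped, and 7%, 7.23% and 8.14% of its UMIs were expected from other wells. Fibroblast-like sums held 1.98 to 33.5 CPM of *Lama5*, with 52.9% of the UMIs expected from other wells.

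The beta chains divided between epithelium and stroma. *Lamb3*, the partner of *Lama3*, was at 76.0 to 540 CPM in basal-like, 4.79 to 148 CPM in ER- luminal-like, 1.21 to 43.4 CPM in ER+ luminal-like and 0 to 25.2 CPM in fibroblast-like sums. Of its UMIs 3.13%, 8.76%, 26.7% and 54.6% were expected from other wells in these classes. *Lamb1* was at 214 to 372 CPM in fibroblast-like and 56.8 to 287 CPM in basal-like sums and was higher in the fibroblast-like sum of 13 of 13 fragments. It was nearly absent from luminal cells, at a median of 4.03 CPM in ER+ and 4.56 CPM in ER- sums, where 157% and 86.1% of the UMIs were expected from other wells. *Lamb2* was found in every class, at a median of 211 CPM in fibroblast-like, 42 CPM in basal-like, 40.5 CPM in ER- luminal-like and 28.8 CPM in ER+ luminal-like sums. Here 2.87%, 15.5%, 12.5% and 17.4% of its UMIs were expected from other wells. *Lamb2* was higher in fibroblast-like than in basal-like sums in 13 of 13 fragments. The 3 epithelial ranges overlapped, and basal-like exceeded ER+ luminal-like sums in 10 of 16.

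The gamma chain, collagen IV and nidogen differed in how stromal and basal levels compared. *Lamc1* was at 339 to 646 CPM in fibroblast-like and 85.0 to 310 CPM in basal-like sums, 2 ranges without overlap. It was also found in ER+ luminal-like sums at 9.66 to 46.2 CPM, with 40.2% of its UMIs expected from other wells and more than expected in 16 of 16 fragments, and in ER- sums at 0 to 76.2 CPM, with 58.1% expected. *Col4a1* was at 129 to 1230 CPM in fibroblast-like and 267 to 1560 CPM in basal-like sums, and *Col4a2* at 45.1 to 856 CPM and 173 to 822 CPM. In ER+ luminal-like sums the UMIs expected from other wells were 136% of those observed for *Col4a1*, 122% for *Col4a2* and 116% for *Nid1*, and more UMIs than expected were seen in 4, 6 and 6 of 16 fragments. *Nid1* was a fibroblast transcript, at 580 to 1230 CPM in these sums against 11.3 to 57.2 CPM in basal-like sums, where 47.0% of its UMIs were expected from other wells. The expectation uses the pool of all cells of a fragment, the class's own cells included. It is a share, estimated from marker transcripts, times the rate of the gene in that pool, and the observed UMIs do not bound it. Why it exceeded the observed UMIs of *Col4a1*, *Col4a2* and *Nid1* in ER+ luminal-like sums was not tested.

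**Figure D1:**
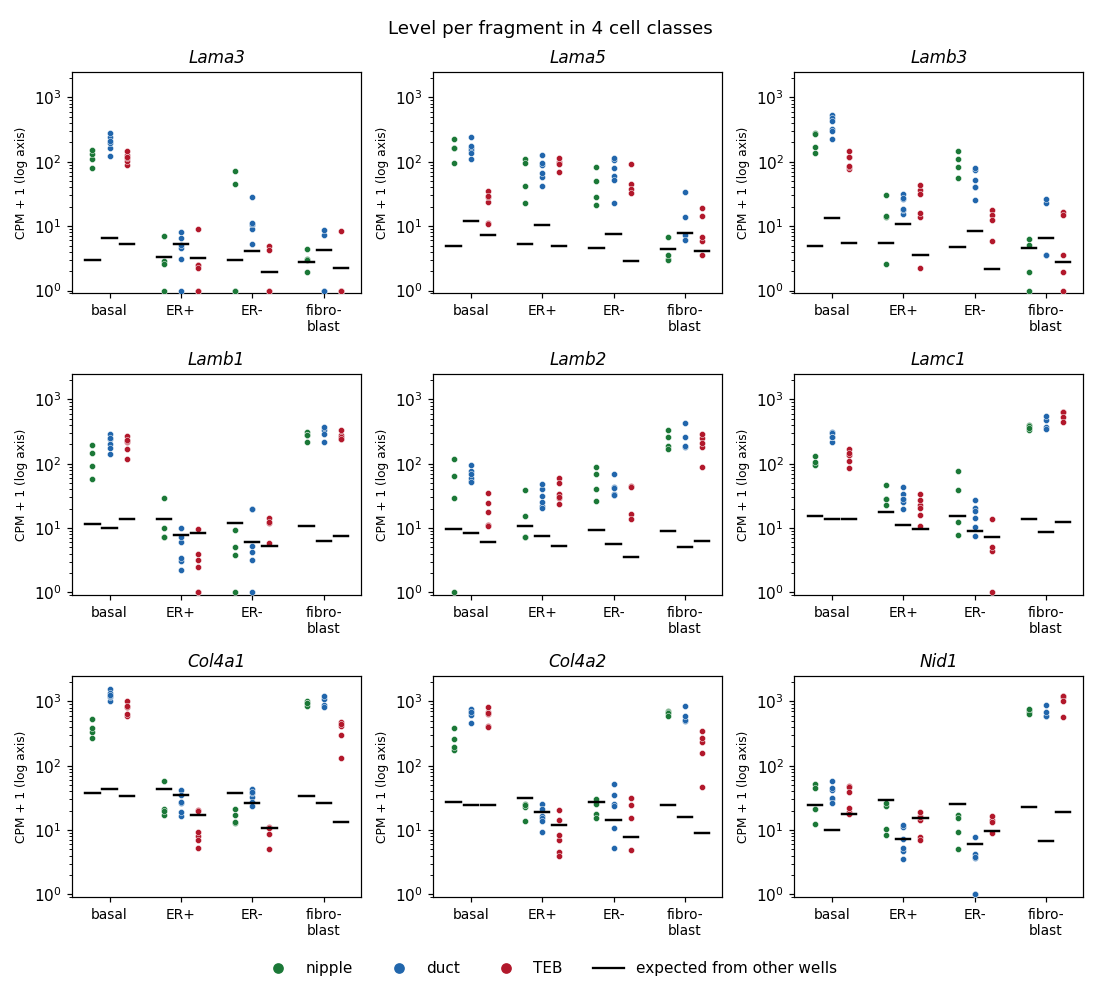
Level of each member in basal-like, ER+ luminal-like, ER- luminal-like and fibroblast-like sums. Points are fragments (CPM + 1, log axis) coloured by location, and black lines mark the pooled level expected from other wells; *Lama3* stood above the lines in basal-like sums, *Nid1* far above them in fibroblast-like sums, and *Col4a1* and *Col4a2* lay around or under them in ER+ luminal-like sums.

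Among the small clusters, the 19 pericyte-like cells held 654 CPM of *Col4a1* (95% Poisson interval 563 to 755), 559 CPM of *Col4a2* (475 to 653), 337 CPM of *Lamb2* (273 to 412), 137 CPM of *Lamc1* (97.5 to 187), 73.8 CPM of *Lama5* (45.7 to 113), 38.7 CPM of *Lamb1* (19.3 to 69.2) and 63.3 CPM of *Nid1* (37.5 to 100), and 0 UMIs of *Lama3* and *Lamb3* among 284534, which allows up to 10.5 CPM (3 counts). The 78 myeloid-like cells held at most 25.3 CPM of any member. The 68 unnamed cells held 72.3 CPM of *Col4a1* (62.1 to 83.7), 60.6 CPM of *Lama5* (51.3 to 71.1) and at most 52.1 CPM of any other member. After each cell was thinned to 5000 UMIs, *Col4a1* was detected in 83.7% of basal-like cells (95% exact binomial interval 78.9 to 87.7), 77.0% of fibroblast-like cells (71.3 to 82.0), 78.9% of pericyte-like cells (54.4 to 93.9) and 11% of ER+ luminal-like cells (8.18 to 14.3), against 8.97% of myeloid-like cells (3.68 to 17.6). Unthinned, these shares were 92.2%, 87.7%, 89.5%, 45.8% and 30.8%, at median depths of 25193.5, 36416, 13683, 36513 and 18965.5 UMIs per cell. *Nid1* was detected in 89.7% of fibroblast-like (85.2 to 93.1) and 15.3% of basal-like cells (11.4 to 19.9), against 6.41% of myeloid-like cells (2.11 to 14.3), in thinned cells. Unthinned, it was found in every fibroblast-like cell and in 36.7% of basal-like and 21.8% of myeloid-like cells. These intervals cover counting error only.

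Chains that can share a trimer or network were also looked for in the same cells. In thinned cells *Lama5*, *Lamb1* and *Lamc1* were seen together in 33 of 294 basal-like cells (11.2%, 7.85 to 15.4) and 6 of 252 fibroblast-like cells (2.38%, 0.879 to 5.11). Both collagen IV chains were seen in 67.3% of basal-like cells (61.7 to 72.7), 58.7% of fibroblast-like cells (52.4 to 64.9) and 0.935% of ER+ luminal-like cells (0.255 to 2.38). At this depth a missing chain can be a molecule that was not captured. Chains seen together can also include RNA from another well or cell, since doublets were not called. In the fibroblast-like sums 52.9% of the *Lama5* UMIs were expected from other wells.

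In basal cells the location of the fragment went with the level of most members. All 9 members were tested in the basal-like sums with the quasi-likelihood test of edgeR, and 7 differed across the 3 locations, against a background of 20.6% of 7316 genes. *Lama5* and *Lamb3* were lowest in TEB, whereas collagen IV was lowest in nipple. *Lamb1* (adjusted p = 0.11) and *Nid1* (adjusted p = 0.80) did not pass the test in edgeR. Comparisons with TEB set cluster 2 of nipple and duct beside cluster 6 of TEB, while nipple and duct share cluster 2.

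*Lama5* was the member with the largest difference. Its level was 228, 164, 96.3 and 165 CPM in the nipple fragments 21 to 24, and in duct it was 109 CPM at the lowest, 158 at the median and 245 at the highest. In TEB it was 9.91 to 34.6 CPM with a median of 25.2. Each TEB fragment lay below each nipple and duct fragment. The means were 163 ± 53.9 (SD, n = 4), 163 ± 46.1 (SD, n = 6) and 22.2 ± 10.1 CPM (SD, n = 6), a log2 difference of 2.96 ± 0.35 (SE, adjusted p = 7.9e-08) between nipple and TEB and of 2.95 ± 0.33 (adjusted p = 2.9e-08) between duct and TEB in edgeR. Nipple and duct differed by a log2 of 0.00 (95% interval -0.65 to 0.66). In TEB 25.5% of the *Lama5* UMIs were expected from other wells, against 2.32% in nipple and 6.94% in duct.

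*Lamb3* and *Lama3* were highest in duct. *Lamb3* was at 138, 275, 266 and 170 CPM in nipple, at 227 to 540 CPM in duct (median 376) and at 76.0 to 146 CPM in TEB (median 102). Duct and TEB fragments did not overlap, and duct exceeded TEB 4.05-fold in the edgeR fit (log2 2.02 ± 0.24, adjusted p = 7.5e-08). Nipple exceeded TEB 2.28-fold (adjusted p = 8.7e-04 in edgeR) with ranges that overlapped, since the lowest nipple fragment was below the highest TEB fragment. Nipple was lower than duct by a log2 of -0.83 ± 0.26 (adjusted p = 0.045 in edgeR), and this call was lost when nipple 21 or 24 or duct 31, 32, 51 or 52 was left out in turn (adjusted p = 0.051 to 0.19). Without the 5 fragments in which over 15% of the basal-like UMIs were expected from other wells (duct 31, 32 and 51, TEB 42 and 43), an alternative chosen after seeing the data, this difference was -0.42 (adjusted p = 0.63). *Lama3* was at 109, 129, 77.9 and 149 CPM in nipple, 121 to 282 CPM in duct (median 203) and 89.2 to 148 CPM in TEB (median 115). Only the difference of duct and TEB passed, by a log2 of 0.96 ± 0.25 (adjusted p = 0.0075 in edgeR), with ranges that overlapped. Without the same 5 fragments it was 1.01 (adjusted p = 0.12).

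*Lamb2*, the beta chain that replaces *Lamb1* in some trimers, was at 0, 64.4, 117 and 28.7 CPM in the nipple fragments (a count of 0 in nipple 21 allows up to 5.66 CPM), at 50.2 to 96.4 CPM in duct (median 63.4) and at 9.91 to 33.9 CPM in TEB (median 13.4). Every duct fragment was above every TEB fragment, and the nipple fragments spanned both. Duct exceeded TEB by a log2 of 2.01 ± 0.57 (adjusted p = 0.017 in edgeR), whereas nipple and TEB differed by 1.67 ± 0.61 (adjusted p = 0.053). Across locations the adjusted p of 0.026 rose to 0.055 to 0.058 without TEB 31, 33 or 34, to 0.10 with at least 10 cells per sum and to 0.096 without the 5 fragments. *Lamb1* was at 145, 56.8, 197 and 91.4 CPM in nipple, 141 to 287 CPM in duct and 118 to 273 CPM in TEB, overlapping ranges in which no pair passed the test. Of its 251 nipple UMIs 217 were in the 96 nipple cells of cluster 2 (101 CPM). The others were in the 1 nipple cell of cluster 6. Without nipple 23 *Lamb1* differed across locations (adjusted p = 0.025 in edgeR), as it did with cells thinned to 5000 UMIs (0.017). The number of *Lamb1* UMIs per *Lamb2* UMI was 2.30 in nipple, 3.34 in duct and 9.10 in TEB over the pooled basal-like sums, a description with no test. By fragment it was 1.47 to 5.39 in duct and 5 to 26.8 in TEB, and 0.881 to 3.19 in the 3 nipple fragments with a *Lamb2* UMI.

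*Lamc1*, the gamma chain of the *Lama5* trimers, was raised in duct. It was at 99.9, 95.1, 133 and 107 CPM in nipple, 215 to 310 CPM in duct (median 262) and 85.0 to 169 CPM in TEB (median 135). The duct fragments lay above all others. Nipple differed from duct by a log2 of -1.30 ± 0.25 (adjusted p = 9.3e-04), and duct exceeded TEB by 1.22 ± 0.22 (adjusted p = 1.2e-04 in edgeR), and nipple and TEB differed by -0.08 (95% interval -0.58 to 0.42).

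Collagen IV was lowest in the nipple. *Col4a1* was at 522, 267, 337 and 390 CPM in nipple, 1000 to 1560 CPM in duct (median 1242) and 595 to 1010 CPM in TEB (median 815). All nipple fragments were below all others, and a single TEB fragment reached into the duct range. The level in nipple was lower than in duct by a factor of 3.35 (log2 -1.74 ± 0.18, adjusted p = 4.9e-08) and lower than in TEB by a factor of 1.85 (log2 -0.89 ± 0.18, adjusted p = 3.1e-04), and duct exceeded TEB 1.81-fold (adjusted p = 9.8e-05 in edgeR). *Col4a2* was at 173, 256, 195 and 382 CPM in nipple, 466 to 765 CPM in duct (median 676) and 398 to 822 CPM in TEB (median 642). Nipple was below both without overlap, by a log2 of -1.38 ± 0.22 against duct (adjusted p = 1.2e-04) and -1.09 ± 0.22 against TEB (adjusted p = 4.8e-04 in edgeR), while duct and TEB differed by 0.29 (95% interval -0.10 to 0.67). Pooled over fragments, 1.46 *Col4a1* UMIs were counted per *Col4a2* UMI in nipple, 1.92 in duct and 1.30 in TEB.

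*Nid1* was at 11.3, 50.6, 20.6 and 44.8 CPM in nipple, 25.4 to 57.2 CPM in duct and 16.5 to 46.9 CPM in TEB, with full overlap. Of its UMIs 70.7%, 22.8% and 55.7% were expected from other wells in nipple, duct and TEB. The summed fibroblast markers, none of which was at 0, were 928 to 1870 CPM in the basal-like sums of nipple, 263 to 456 CPM in those of duct and 231 to 489 CPM in those of TEB. Their part in the levels of members that fibroblasts also contain was not tested. With the UMIs expected from other wells subtracted, 7 members were called across locations, a count given without the share of all genes in that fit.

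**Figure D2:**
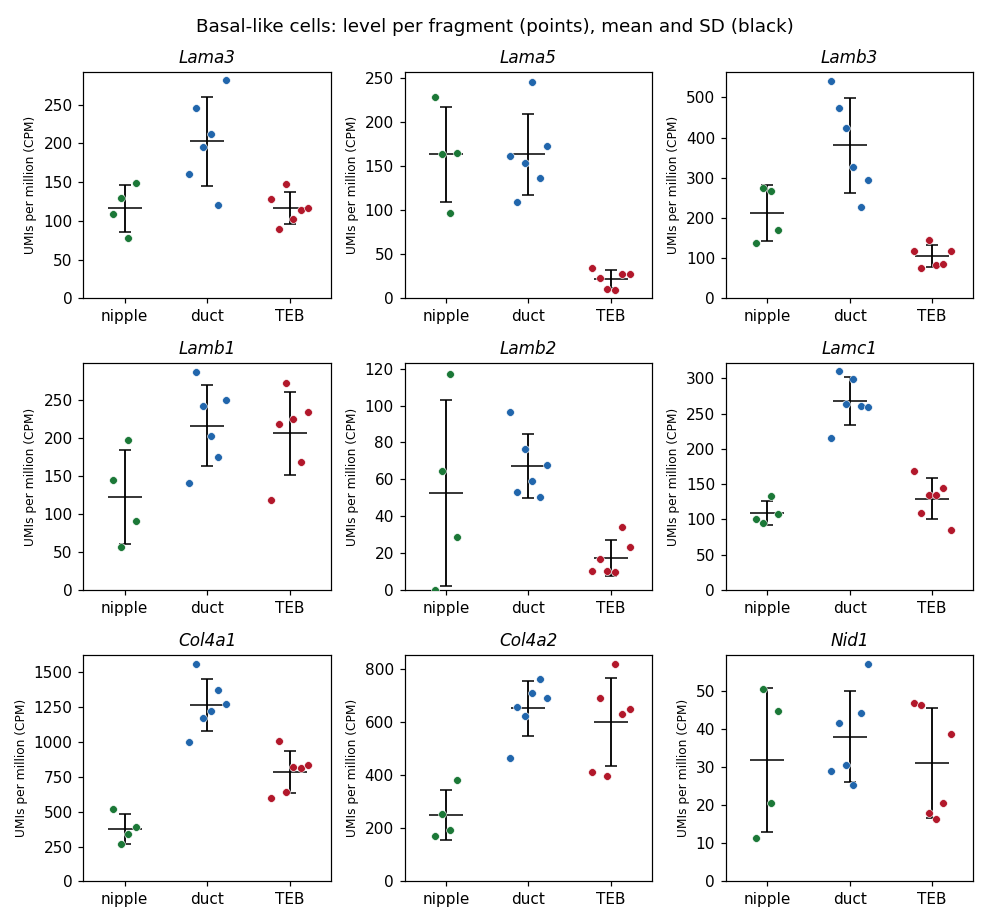
Level of the 9 members in basal-like cells. Each point is a fragment (CPM, linear axis from 0), and black marks give the mean and SD of 4 nipple, 6 duct and 6 TEB fragments; *Lama5* falls to 9.91 to 34.6 CPM in TEB, and *Col4a1* and *Col4a2* are lowest in nipple.

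By pair, 2 members were higher in nipple than in TEB (*Lama5* and *Lamb3*), where 8.90% of all genes were, and 2 were higher in TEB (*Col4a1* and *Col4a2*), where 9.81% of all genes were. Between nipple and duct 0 members were higher in nipple (2.23% of all genes) and 4 higher in duct (4.06% of all genes), namely *Lamb3*, *Lamc1*, *Col4a1* and *Col4a2*. DESeq2 also called *Lama3* in this pair and *Lamb2* between nipple and TEB. Between duct and TEB 6 members were higher in duct (6.48% of all genes) and 0 higher in TEB (3.91% of all genes). The members' median log2 difference between duct and TEB was 0.96, beside -0.04 over all genes tested.

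In fibroblast-like cells the locations differed in collagen IV. Of 8 members tested (*Lama3* was too low), 2 differed across locations, against 1.70% of 8489 genes. *Col4a1* was at 1030, 928, 848 and 950 CPM in nipple 21 to 24, at 1100, 875, 806 and 1230 CPM in duct 32, 52, 61 and 62, and at 129, 297, 407, 472 and 444 CPM in TEB 31 to 34 and 42. All TEB fragments were below all others. Nipple exceeded TEB by a log2 of 1.54 ± 0.27 (adjusted p = 0.0020) and duct exceeded TEB by 1.62 ± 0.27 (adjusted p = 0.0087 in edgeR). *Col4a2* was at 596 to 704 CPM in nipple, 502 to 856 CPM in duct and 45.1 to 350 CPM in TEB, a log2 difference of 1.77 ± 0.36 between nipple and TEB (adjusted p = 0.0091) and of 1.67 ± 0.36 between duct and TEB (adjusted p = 0.051 in edgeR). Without TEB 32 its adjusted p across locations was 0.076. Only 1.11% of all genes were higher in nipple than in TEB, and both members called in that pair were. Between nipple and duct edgeR called 0 of 8 members, with 0 at an unadjusted p under 0.05 and 0 called by DESeq2. The share of all genes called in this pair is not given here, so that these counts stand without a background.

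Different clusters held the fibroblast-like cells of the locations. Cluster 5 held 115 of 116 nipple and 29 of 38 duct cells, while cluster 9, with *Pi16* and *Dpp4* among its leading genes, held 64 of 98 TEB cells. Pooled over cells, *Col4a1* was at 941 CPM in cluster 5 of nipple (95% Poisson interval 914 to 970), 1180 CPM in that of duct (1120 to 1260) and 952 CPM in that of TEB (870 to 1040), but at 97.0 CPM in cluster 9 of TEB (85.5 to 110) and 566 CPM in cluster 10 of TEB (517 to 618). *Col4a2* followed with 661, 752, 485, 46.2 and 385 CPM. *Nid1* went the other way in cluster 9 only, at 682, 874 and 814 CPM in cluster 5 and 1260 CPM in cluster 9 (1220 to 1300). In cluster 10 of TEB it was at 763 CPM (706 to 823), within the values of cluster 5. With cluster 5 alone (4 nipple, 3 duct and 1 TEB fragment, the lone TEB sum of 7 cells being taken to vary like the others), the log2 difference of nipple and TEB was 0.14 for *Col4a1* and 0.52 for *Col4a2*. Neither was called, in a fit whose TEB arm is 1 sum. This alternative was chosen after seeing the data.

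**Figure D3:**
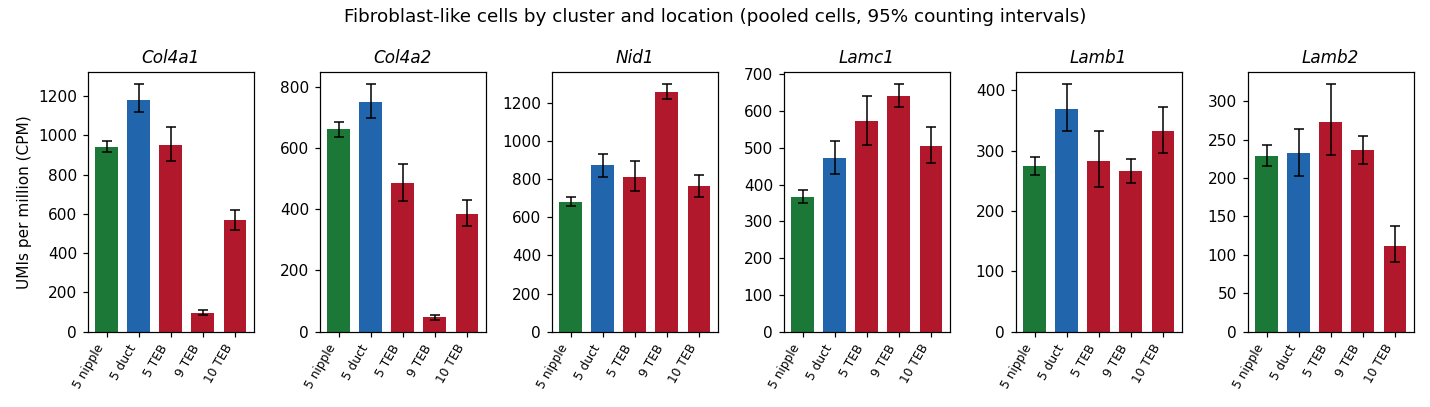
Levels of 6 members in the fibroblast-like clusters with at least 10 cells at a location. Bars are pooled CPM from 0 and lines 95% Poisson intervals (counting error only); *Col4a1* and *Col4a2* are low in cluster 9 of TEB (97.0 and 46.2 CPM), where *Nid1* is highest (1260 CPM).

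The other members that fibroblasts contained did not pass the test. *Nid1* was at 628 to 762 CPM in nipple, 586 to 883 CPM in duct and 580 to 1230 CPM in TEB (adjusted p across locations 0.41 in edgeR), and *Lamc1* at 339 to 402, 343 to 555 and 449 to 646 CPM (adjusted p = 0.45). Nipple and TEB *Lamc1* did not overlap, with an interval of the log2 difference from -1.05 to -0.08. With at least 10 cells per sum *Nid1* (adjusted p = 0.0089) and *Lamc1* (0.047) differed across locations, and *Col4a2* did not (0.055 in edgeR). *Lamb1* (216 to 310, 214 to 372 and 238 to 335 CPM) and *Lamb2* (168 to 337, 178 to 435 and 88.2 to 290 CPM) overlapped between all locations, with intervals of the difference between nipple and TEB from -0.45 to 0.65 and from -0.41 to 1.01.

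In ER+ luminal-like sums 7 members were tested and 0 differed across locations by edgeR, with 1 at an unadjusted p under 0.05 (*Col4a1*) and 0 by DESeq2, where 5.64% of 8819 genes differed. *Lama5* was at 110, 22.2, 95.3 and 41.5 CPM in nipple, 41.6 to 128 CPM in duct (median 76.5) and 67.6 to 112 CPM in TEB (median 96.0), with an interval of the log2 difference of nipple and TEB from -1.13 to 0.25. *Lamb2* was at 6.34 to 37.8, 19.6 to 47.5 and 22.9 to 59.7 CPM. In ER- luminal-like sums 1 of 5 members tested differed, against 4.17% of 5588 genes. This was *Lamb3*, at 148, 83.5, 111 and 54.5 CPM in nipple, 24.7 to 79.2 CPM in duct (median 45.5) and 16.8, 13.8, 11.6 and 4.79 CPM in TEB 32, 33, 34 and 42. Nipple and TEB did not overlap, and nipple exceeded TEB by a log2 of 3.21 ± 0.65 (adjusted p = 0.0020 in edgeR), a direction taken by 2.99% of all genes. The summed basal markers, of which *Trp63* was at 0 in nipple and *Oxtr* in duct and TEB, moved with it in the same sums, at 1740 to 3330 CPM in nipple, 310 to 784 CPM in duct and 57.8 to 190 CPM in TEB, and their part in the result was not tested. With at least 10 cells per sum the adjusted p across locations was 0.083, and without the 5 fragments it was 0.055. The log2 difference of nipple and TEB was 3.02 (adjusted p = 0.046) and 2.90 (adjusted p = 0.022 in edgeR) in these fits, and it passed in each of 23 alternatives, at 2.90 to 3.42.

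Whether a member's dependence on location differed between classes was tested directly, with the fragment as a term. Between basal-like and fibroblast-like cells (13 fragments) it differed for 4 members, *Col4a1* (adjusted p = 2.8e-06), *Col4a2* (2.9e-05), *Lama5* (0.012) and *Lamc1* (0.013 in edgeR), against 3.34% of 8605 genes. Without TEB 33 the adjusted p of *Lama5* was 0.055 in edgeR. It was 0.15 with at least 10 cells per sum and 0.20 with cells thinned to 5000 UMIs. *Lama5* was also lost at a clustering resolution of 1. *Lamc1* was lost with at least 10 cells per sum and with thinned cells. The fibroblast-like sums held 65 *Lama5* UMIs, with 52.9% expected from other wells. In nipple *Col4a1* was higher in fibroblast-like than in basal-like sums in 4 of 4 fragments, and in TEB it was higher in basal-like sums in 5 of 5. For the basal-like and ER+ classes (16 fragments) it differed for *Lama5* (adjusted p = 1.8e-06), *Col4a2* (5.0e-04), *Col4a1* (0.0054) and *Lamb1* (0.028 in edgeR), against 6.79% of 9449 genes. With the UMIs expected from other wells subtracted *Lama5* and *Lamb1* were still called, while the adjusted p was 0.39 for *Col4a1* and 0.85 for *Col4a2*. The ER+ sums held 86 *Lamb1* UMIs where 135 were expected from other wells. In that class alone *Lamb1* was too low to be tested across locations. *Lama5* was higher in basal-like than in ER+ luminal-like sums in 4 of 4 nipple and 6 of 6 duct fragments and lower in 6 of 6 TEB fragments. Without nipple 23 *Col4a1* (0.069) and *Lamb1* (0.22) were not called. *Lamb1* was also lost without nipple 22 or 24 or TEB 33 or 34 (0.055 to 0.062), and without nipple 21 or TEB 42 *Lamb2* and *Lamb3* were called as well.

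**Figure D4:**
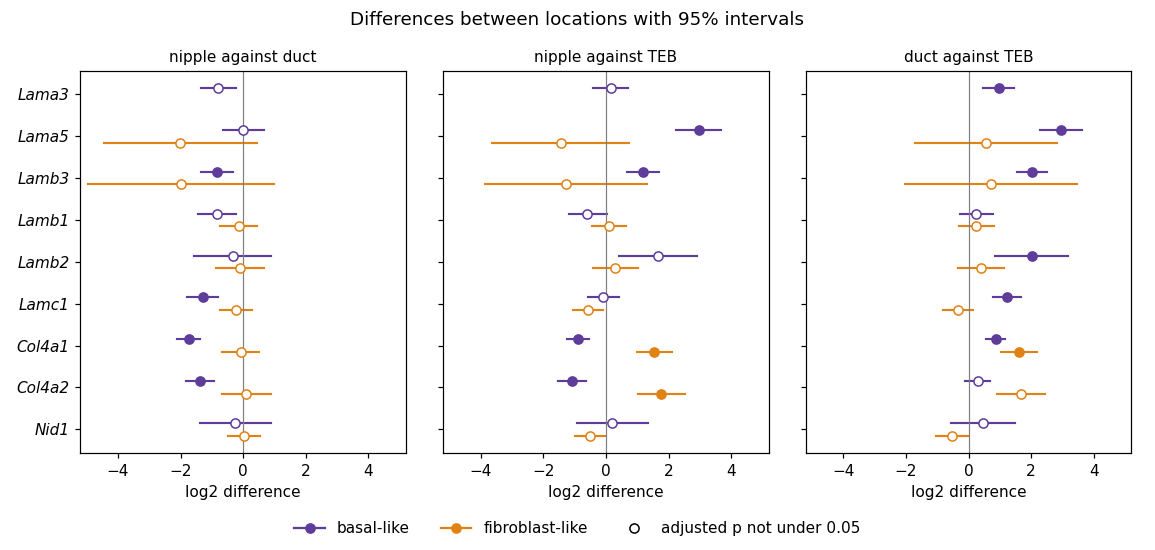
Log2 differences between locations in basal-like and fibroblast-like sums (x axis), with lines for 95% intervals and open points where the adjusted p was not under 0.05. For *Col4a1* and *Col4a2*, nipple against TEB is below 0 in basal-like cells (-0.89 and -1.09) and above 0 in fibroblast-like cells (1.54 and 1.77).

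Other genes of the basement membrane were read from lists, against the same 20.6% of genes that differed across locations in basal-like cells. Of 28 further components 15 were tested in basal-like cells and 12 differed across locations. *Hspg2*, the core protein of perlecan, had means of 139 CPM in nipple, 118 CPM in duct and 23.1 CPM in TEB and *Sparc*, a collagen-binding matricellular protein, 3173, 2948 and 1805 CPM. *Col7a1*, the anchoring fibril collagen, was highest in duct with a mean of 261 CPM against 87.7 in nipple and 102 in TEB. *Nid2*, the paralog of *Nid1*, was at 1.79 to 7.67 CPM in nipple, at 25.7 CPM in duct 31 and 0 in the other 5 duct fragments, and at 0 to 10.2 CPM in TEB, with 4 of 6 fragments at 0. In fibroblast-like cells, where 1.70% of all genes differed, 2 of 19 tested components did.

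Of 17 receptor and hemidesmosome genes 16 were tested in basal-like cells and 9 differed, against 20.6% of all genes. *Bcam*, a receptor for the *Lama5* chain, had means of 144 CPM in nipple, 297 CPM in duct and 60.2 CPM in TEB, and duct exceeded TEB by a log2 of 2.41 ± 0.28 (adjusted p = 5.1e-08 in edgeR). *Itgb1*, the common beta subunit of laminin and collagen integrins, was at 843, 1008 and 586 CPM. The syndecan *Sdc4* was at 1963, 1835 and 554 CPM, whereas *Sdc1* was at 259, 853 and 621 CPM. In fibroblast-like cells 0 of 9 tested receptor genes were called by edgeR, against the same 1.70% of all genes.

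Collagen IV is hydroxylated, folded and crosslinked by a set of enzymes. Of 15 listed genes 12 were in the files and 11 were tested in basal-like cells. Across locations 2 of the 11 differed, where 20.6% of all genes did, so that this list did not stand out. They were *P4hb* (295, 358 and 526 CPM in nipple, duct and TEB), a subunit of prolyl hydroxylase, and *Plod1* (18.5, 24.8 and 96.4 CPM), a lysyl hydroxylase. Both had their highest mean in TEB. Of 11 proteases 8 were tested and 5 differed, against the same 20.6% of all genes. *Ctsl*, a cathepsin, was at 1873, 996 and 619 CPM. *Mmp2* (245, 45.9 and 13.3 CPM) and *Mmp3* (74.1, 4.22 and 0.551 CPM) were highest in nipple, with 23.4% and 86.9% of their nipple UMIs expected from other wells. The protease *Adamts1* was lowest in duct (27.3 CPM, against 147 in nipple and 83.7 in TEB).

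Patterns were compared over the 12 means of 4 classes and 3 locations, which share fragments and depth, as a description. *Col4a1* and *Col4a2* were most like each other among 5975 genes (Pearson r = 0.987) and next like *Col18a1* (0.984 and 0.985). *Lama3* was most like *Krt17* (0.976), *Tns4* and *Col17a1*, and *Lamb3* was most like *Fhl2* (0.943), *Pdcd6* and *Tpm1*. *Lama5* was most like *Bcar1* (0.967), *Nedd4l* and *2900026A02Rik*. *Lamb1* was most like *Fbln2* (0.987), *Col14a1* and *Gas1*, *Lamc1* like *Itga5* (0.975), *Phldb1* and *Wls*, *Lamb2* like *Scara3* (0.965), *Mxra7* and *Vkorc1*, and *Nid1* like *Ramp2* (0.980), *Col5a1* and *Fbn1*. *Fscn1* and *Matn2* were the third for *Col4a1* and *Col4a2*.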

How the data were processed

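Cells of 4 nipple, 6 duct and 6 TEB fragments were profiled by 3' SMART-seq with UMIs and spike-in RNA. The authors used UMI-tools, Trim Galore, STAR (mm10, uniquely aligned reads) and featureCounts, and deposited raw UMI counts of each gene in each cell. The table holds 1419 cells. The 67 spike-ins entered no sum or test.

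Cells with at most 5% spike-in UMIs, 5000 to 120000 UMIs and 200 to 6000 genes entered the clustering, for which Seurat 5.3.0 (R 4.3.3) was run with 2000 variable genes, 5 of them members, 14 components and a resolution of 0.5. Each cluster took the class of highest mean marker z-score with at least 3 markers detected. How many markers had to be raised, and which cluster stayed unnamed, was settled with the clusters in view. Doublets were not called. Sums of UMIs over the cells of a class in a fragment were tested by the robust quasi-likelihood method of edgeR 4.0.16 with TMM factors, genes kept by filterByExpr, the 3 locations in 1 model and Benjamini-Hochberg adjustment at 0.05. The class by location term was tested with a fragment term, and DESeq2 1.42.0 was an alternative.

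The share of UMIs from other wells is the median over cells of the tracer share, divided by the tracer share of the fragment's pooled cells. The expected UMIs of a gene are this share times its rate in the pool. Tests were checked on simulated data. Alternatives changed the size factors, filters, cell minimum, depth, clustering and fragments. The members and gene lists were chosen with earlier results of these data known. Genes named are all members, at most 4 called genes of smallest p from each other list, *Nid2*, and the 3 genes most like each member among those reaching 50 CPM. A gene that this rule names is not reported here.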

Additional observations from a re-analysis of the deposited data

Results flagged for a closer look

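Of 87 groups of 4 to 10 fragments (a tested member in a class and location), 3 held a fragment far from the others, and chance gives about 5% of groups. *Col4a1* in ER+ luminal-like cells was at 57.5 CPM in nipple 23 and at 15.9 to 20.2 CPM in the other nipple fragments. *Lama5* in fibroblast-like cells was at 5.83 CPM in nipple 21 and at 1.98 to 2.56 CPM in the others, and *Lamb2* in ER- luminal-like cells was at 67.9 CPM in duct 32 and at 31.7 to 42.8 CPM in the others.

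The dependence on location differed between basal-like and fibroblast-like cells for *Col4a1* (adjusted p = 2.8e-06), *Col4a2* (2.9e-05), *Lama5* (0.012) and *Lamc1* (0.013), and for the pair of basal-like and ER+ classes in *Lama5* (1.8e-06), *Col4a2* (5.0e-04), *Col4a1* (0.0054) and *Lamb1* (0.028), by the class by location term of edgeR.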

How the results depend on the processing

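No log2 difference of a called member changed sign in 484 values under the alternatives. Across locations, basal-like cells had 6 to 8 called members when each fragment was left out in turn, ER+ luminal-like cells 0, ER- luminal-like cells 1 and fibroblast-like cells 1 to 2. By pair in basal-like cells the ranges were 4 to 5 (nipple against TEB), 3 to 5 (nipple against duct) and 6 (duct against TEB). The class by location counts were 3 to 4 (fibroblast-like) and 2 to 6 (ER+ luminal-like). The member counts in this paragraph are given without the share of all genes in each alternative. With at least 10 cells per sum, 0 members were called in ER- luminal-like cells, and 2 in each class by location comparison. With cells thinned to 5000 UMIs these counts were 2 (fibroblast-like) and 1 (ER+), and with the UMIs expected from other wells subtracted 2 (ER+). Alternatives added after seeing the data gave 0 members in ER- luminal-like cells without the 5 fragments with over 15% of basal-like UMIs from other wells, and 0 in fibroblast-like cells with cluster 5 alone. The cause was not tested. *Lamb3* differed between nipple and TEB in ER- luminal-like cells under each of 23 alternatives (log2 2.90 to 3.42). Thinning is not among the 23, since no member was tested in this class with cells thinned to 5000 UMIs.

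Duct and TEB share the numbers 31 and 32. Over 7316 genes the deviations of same-numbered fragments correlated at 0.00 and -0.01, and those of the crossed pairs at 0.01 each. These values cannot tell whether same-numbered fragments came from the same mouse. A replicate block on these 4 fragments called 3 members between duct and TEB and 308 of 5448 genes, against 133 genes and 1 member in the same 4 fragments without the block. Duct and TEB fragments whose number starts with 3 also gave 3. No nipple fragment shares a full number or a leading digit with a duct or TEB fragment. The labels do not say what that digit marks, so that the nipple comparisons could not be checked in this way. If it marks a mouse or batch, that cannot be told apart from the nipple location. RLE size factors moved the median log2 difference by -0.089 at the most (nipple against duct in fibroblast-like cells), where the share of calls higher in nipple went from 64.7% to 50%.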
